A study of Zea mays with 9 samples.

Results

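The genes described here are 4 maize regulators of root initiation, and they were taken by identifier: rtcs (GRMZM2G092542), its paralog rtcl (AC149818.2_FGT009), the LOB-domain gene LOB21 (GRMZM2G092483) and the Aux/IAA gene rum1 (GRMZM2G037368). Each was read by a single probe, so that the members account for 4 of the 39372 transcripts on the array. All 4 probes were found and entered the fit across all transcripts. RNA came from roots of the commercial maize hybrid P0423. Seedlings aged 4 days were moved to a diluted nutrient solution for 3 days with 1 of 3 nitrogen sources, which were inorganic nitrogen given as NH4H2PO4 (N), a mixture of free amino acids composed like the hydrolysate (Aa) or a commercial protein hydrolysate at 0.1 ml per L (Bio). Total nitrogen was 11.3 mg per L in every treatment, so no group was left without nitrogen. The salt given in N also carried phosphate, and the study describes no matching phosphate for Aa or Bio. In the comparisons with N, nitrogen form and this phosphate cannot be told apart. Each treatment had 3 arrays, each made from the pooled roots of 24 seedlings and labelled as an independent biological replicate.

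Maize forms a primary root, seminal roots in the embryo, crown roots at the shoot nodes and lateral roots on all of these. Auxin triggers the founder cell divisions of these roots through auxin response factors, which Aux/IAA repressors hold back until auxin brings about the breakdown of the repressor. Genes of the LOB-domain (LBD) family act below the auxin response factors. Mutants of rtcs lack seminal and shoot-borne roots, and mutants of rum1 lack seminal roots and lateral roots on the primary root.

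The value given for a gene is its level, that is the log2 background-corrected intensity minus the log2 of the 75th percentile of the same array. A level of 0 is the brightness of that percentile, and levels of different probes are not compared. The percentile lay between 617 and 962 intensity units over the 9 arrays, and no spot was saturated. Between 29974 and 32309 transcripts were well above background (the scanner software's own test) on 8 arrays, and 27019 on the array Bio 1. In bulk root RNA, fewer cells of a type and less RNA per cell cannot be told apart. The root hair gene rth3 was well above background on all 9 arrays, with levels from 1.40 to 2.38. Its spot was marked as an outlier by the scanner software on 2 N, 3 Aa and 2 Bio arrays. The 2 transcripts that the study annotates as Casparian strip proteins, a mark of the endodermis, were well above background on all arrays as well. The summed level of these 2 transcripts, which the study picked on these arrays, ran from -2.21 to -1.18 in N, from -0.75 to 0.21 in Aa and from -1.35 to -0.57 in Bio. Its part in the differences from N below was not tested. Of 13 transcripts that mark green tissue (light-harvesting, photosystem and Rubisco small subunit genes), each N array had 8 to 10 well above background, each Aa array 5 to 9 and each Bio array 7 to 11. Their summed level on the log2 scale ran from 0.09 to 2.0 in N, from -0.21 to 1.41 in Aa and from 1.52 to 4.27 in Bio. The brightest of them, lhcb6, led this sum, with levels from -0.63 to 1.69 in N, from -1.11 to 0.91 in Aa and from 1.08 to 4.03 in Bio. At an unadjusted limma p below 0.05, 4 of the 13 were higher and 1 lower for Bio against N (3.53% and 3.51% of all transcripts). For Bio against Aa, 8 were higher and 0 lower (3.12% and 1.79% of all transcripts). The part of green tissue in the Bio results below was not tested.

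A difference was called at a Benjamini-Hochberg limma adjusted p of at most 0.01 with at least a 2-fold change. Each organic treatment was compared with N (Aa vs. N, Bio vs. N) and the organic treatments with each other (Bio vs. Aa), in this order wherever 3 values follow each other. By this rule 0% of the transcripts were called in each comparison, hence no member was called either. The smallest adjusted p over all transcripts was 0.175, 0.461 and 0.790, whereas 7.35%, 7.05% and 4.91% of the transcripts had an unadjusted limma p below 0.05. A fixed unadjusted p below 0.05 is therefore used only to count transcripts, and such counts are read against these shares. Arrays of 3 against 3 cannot give a two-sided exact permutation p below 0.1. Aa vs. N and Bio vs. N share the same N arrays.

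rtcs, the LOB-domain factor needed to start seminal and crown roots, had lower levels on all arrays with organic nitrogen than on any N array. The N arrays 1, 2 and 3 gave levels of -3.18, -1.60 and -3.18 (mean -2.65 ± 0.91, SD, n = 3). The Aa arrays gave -4.43, -4.30 and -4.44 (mean -4.39 ± 0.077, SD, n = 3), which was the tightest group for this gene. The Bio arrays gave -5.95, -4.36 and -4.63 (mean -4.98 ± 0.85, SD, n = 3). As intensities, the N arrays lay between 93.3 and 224 units, the Aa arrays between 33.5 and 37.2, and the Bio arrays between 10.4 and 31.6. The probe was thus dim everywhere, N 2 stood above the other N arrays, and on Bio 1 the probe was not well above background.

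The order of the mean levels of rtcs was N, Aa, Bio. Aa lay 1.74 log2 units below N, with a 95% interval of -2.92 to -0.56 (3.33-fold, limma adjusted p = 0.481), and the groups did not overlap (exact permutation p = 0.1). Bio lay 2.32 log2 units below N, with an interval of -3.51 to -1.14 (5.01-fold, limma adjusted p = 0.550), again with no overlap (exact permutation p = 0.1). Ranked by p, the gene stood at position 730 of 38453 transcripts in Aa vs. N and at position 116 of 38553 in Bio vs. N. The neighbouring groups Bio and Aa overlapped and differed by -0.59 (interval -1.77 to 0.59, limma adjusted p = 0.829). Under normexp background correction the differences from N were smaller, at -0.69 for Aa and -0.74 for Bio relative to the median of all transcripts. The limma adjusted p of 0.732 for Aa and 0.877 for Bio belongs to the differences before that median was subtracted. The study lists rtcs, rtcl and LOB21 among the transcripts it selected on these arrays, so that their directions are not independent evidence.

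Of all transcripts, 8.22% had every Aa array below every N array, and 2.33% did so with at least a 2-fold difference. In Bio vs. N these shares were 5.67% and 1.18%. Both rtcs and rtcl met the stricter condition in both comparisons, and LOB21 and rum1 met it in neither. Without the array N 2, rtcs differed by -1.21 in Aa vs. N (limma adjusted p = 0.997) and by -1.80 in Bio vs. N (adjusted p = 0.783). Without the array Bio 1, the difference of Bio vs. N was -1.84 (limma adjusted p = 0.858).

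rtcl encodes the paralog whose protein can pair with RTCS in maize, and each of its N arrays also lay above all Aa and Bio arrays. Levels on the N arrays were 1.58, 2.40 and 1.43 (mean 1.80 ± 0.53, SD, n = 3). The Aa arrays gave 0.93, 0.27 and 0.28 (mean 0.49 ± 0.38, SD, n = 3), and the Bio arrays gave -0.10, 1.35 and 0.18 (mean 0.48 ± 0.77, SD, n = 3). Bio 2 lay within 1 SD of the N mean and just below the lowest N array. N 2 was the highest array, as it was for rtcs.

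Aa lay 1.31 log2 units below N for rtcl, with a 95% interval of -2.27 to -0.34 (2.48-fold, limma adjusted p = 0.515, exact permutation p = 0.1). Bio lay 1.33 log2 units below N, with an interval of -2.29 to -0.36 (2.51-fold, limma adjusted p = 0.683, exact permutation p = 0.1). Bio and Aa overlapped, and their difference was -0.02 with an interval of -0.98 to 0.95, so that nearly a 2-fold difference either way lies within the interval. Under normexp the differences from N were -0.39 for Aa and -0.57 for Bio relative to the median of all transcripts. Without N 2 the difference was -1.01 in Aa vs. N, which no longer had an unadjusted p below 0.05, and -1.03 in Bio vs. N.

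**Figure D1:**
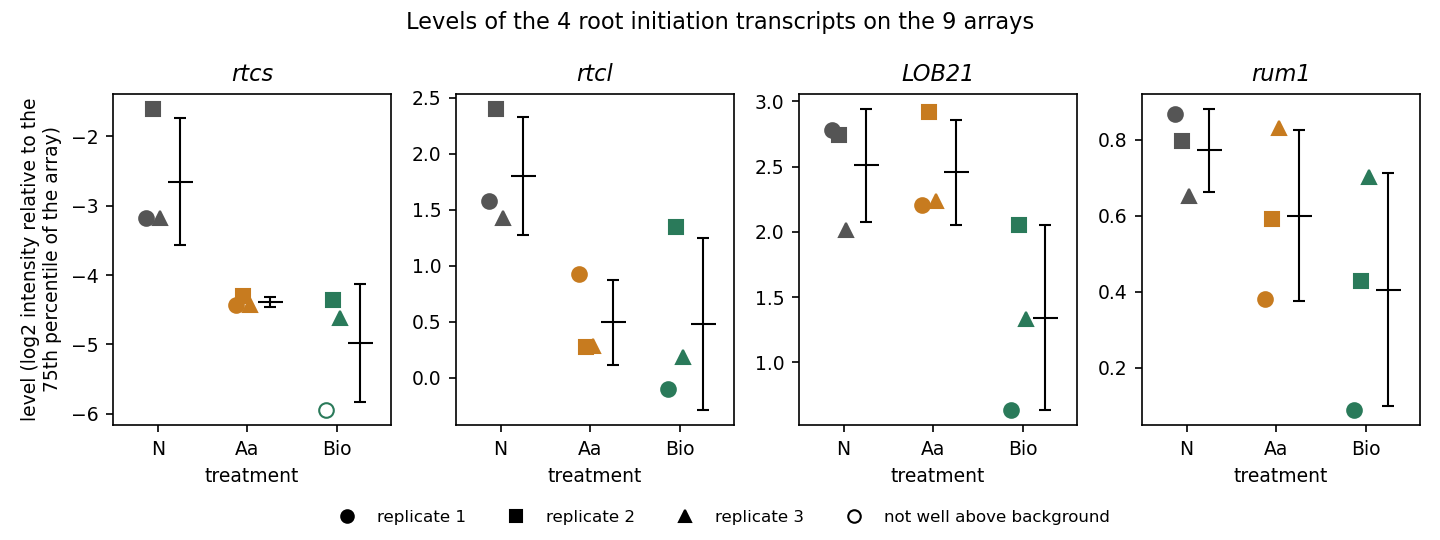
Level of each transcript (y axis, log2 intensity relative to the 75th percentile of the array, with a separate scale per panel) on every array by treatment (x axis). Points are arrays, marked by replicate number, an open point was not well above background, and the dash with bars is the mean ± SD of 3 arrays. All N arrays of rtcs and rtcl lie above the Aa and Bio arrays, LOB21 has its lowest mean in Bio, and the groups of rum1 overlap.

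LOB21 encodes another LOB-domain protein, and in the gene table of the NAM-5.0 assembly it is listed directly beside rtcs, with 0 genes between them. Its levels on the N arrays were 2.78, 2.74 and 2.01 (mean 2.51 ± 0.43, SD, n = 3). The spot on N 3 was marked by the scanner software and was left out of the fit. The Aa arrays gave 2.21, 2.92 and 2.24 (mean 2.46 ± 0.40, SD, n = 3), within the range of N apart from Aa 2. The Bio arrays gave 0.64, 2.05 and 1.33 (mean 1.34 ± 0.71, SD, n = 3), and each was below every Aa array.

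The difference of LOB21 in Aa vs. N was small against its error, at -0.31 with a 95% interval of -1.29 to 0.68. Whether rtcs and LOB21 respond differently to Aa was not tested. Bio lay 1.12 log2 units below Aa, with an interval of -1.99 to -0.24 (2.17-fold, limma adjusted p = 0.790, exact permutation p = 0.1). Of all transcripts, 3.74% had every Bio array below every Aa array and 0.348% did so with at least a 2-fold difference, and LOB21 was the member among them. In Bio vs. N the fit without N 3 gave -1.42 with an interval of -2.40 to -0.44 (limma adjusted p = 0.683). With that spot kept the difference was -1.17, and the groups overlapped at Bio 2 and N 3 (exact permutation p = 0.2). Under normexp LOB21 turned to 1.35 for Aa and 0.09 for Bio against N, relative to the median of all transcripts. Before that median was subtracted, the Bio value was below 0. Without Bio 1, the array with the fewest transcripts above background, Bio vs. Aa was -0.76, no longer with an unadjusted p below 0.05, and Bio vs. N was -1.07 (limma adjusted p = 0.916).

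The nearest genes on either side of the pair that have a transcript on the array were looked up for position, after the member values were known. GRMZM2G043799 was well above background on 0 of the 9 arrays, hence no difference is given. GRMZM2G139834 was well above background on all 9 arrays and differed by 0.62 in Aa vs. N (limma adjusted p = 0.761) and by 0.89 in Bio vs. N (limma adjusted p = 0.683, no overlap).

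rum1, the Aux/IAA repressor required for seminal and lateral root initiation, had overlapping levels in all treatments. The N arrays gave levels of 0.87, 0.80 and 0.65 (mean 0.77 ± 0.11, SD, n = 3). The Aa arrays gave 0.38, 0.59 and 0.83 (mean 0.60 ± 0.23, SD, n = 3), and the Bio arrays gave 0.09, 0.43 and 0.70 (mean 0.41 ± 0.31, SD, n = 3). The means followed the order N, Aa, Bio, but every pair of groups overlapped. The difference was -0.17 in Aa vs. N (interval -0.65 to 0.31, limma adjusted p = 0.996), -0.37 in Bio vs. N (interval -0.85 to 0.12, limma adjusted p = 0.683) and -0.19 in Bio vs. Aa (interval -0.68 to 0.29, limma adjusted p = 0.870). A 2-fold change of rum1 lies outside all 3 intervals. Under normexp the differences from N turned to 0.54 for Aa and 0.12 for Bio relative to the median of all transcripts. Before that median was subtracted, the Bio difference was below 0.

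**Figure D2:**
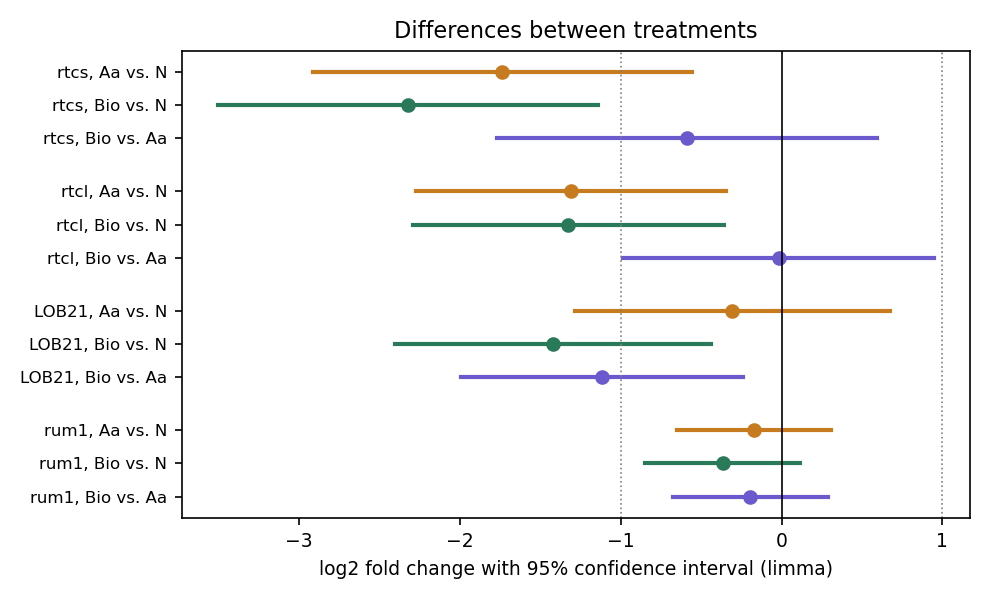
Log2 fold change (x axis) of each transcript in each comparison (y axis). Points are limma estimates, lines their 95% intervals and dotted lines a 2-fold change. The intervals exclude 0 for rtcs and rtcl in both comparisons with N, and for LOB21 in both comparisons of Bio, without adjustment for the number of transcripts tested, and all rum1 intervals cross 0.

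Each slide carried 1 array of each treatment and 1 replicate number, with N, Aa and Bio always at the same positions, and the effects of position on the slide and of treatment cannot be told apart. Within the slides 1, 2 and 3, rtcs differed by -1.25, -2.70 and -1.26 in Aa vs. N and by -2.77, -2.76 and -1.45 in Bio vs. N. rtcl differed by -0.65, -2.13 and -1.15 in Aa vs. N and by -1.68, -1.06 and -1.25 in Bio vs. N. Both genes were lower under organic nitrogen on each of the 3 slides, which already follows from the lack of overlap given above and adds no evidence. The share of all transcripts with the same sign on all 3 slides was not computed. LOB21 differed by -0.58, 0.18 and 0.23 in Aa vs. N, a sign that was not shared by the slides, and by -2.15, -0.69 and -0.68 in Bio vs. N. In Bio vs. Aa it differed by -1.57, -0.87 and -0.91, signs that follow from the lack of overlap of these groups. For rum1 the values were -0.49, -0.21 and 0.18 in Aa vs. N and -0.78, -0.37 and 0.050 in Bio vs. N, with slide 3 of the opposite sign. In Bio vs. Aa rum1 differed by -0.29, -0.16 and -0.13, so that Bio was lower on all 3 slides, and with the replicate number as a block the limma adjusted p was 0.743. In the same comparison rtcs differed by -1.52, -0.06 and -0.19, so that slide 1 supplied most of the mean, and rtcl by -1.03, 1.08 and -0.10, with opposite signs.

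**Figure D3:**
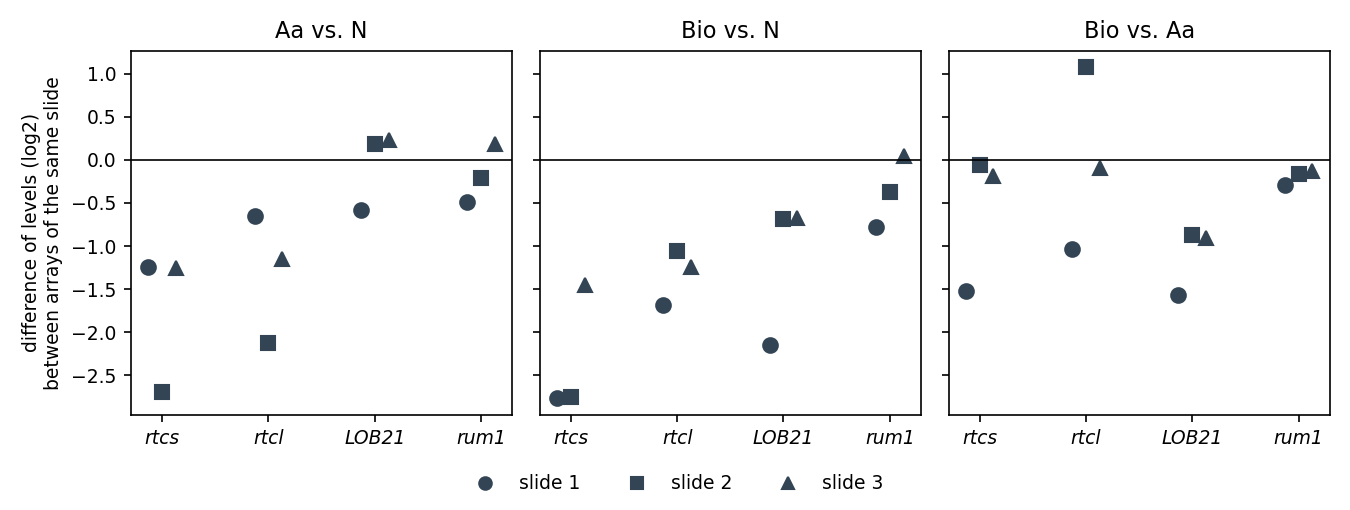
Difference of levels (y axis, log2, every spot kept) between 2 arrays of the same slide for each transcript (x axis) and comparison (panel). Points are slides. rtcs and rtcl lie below 0 on all slides in both comparisons with N, and LOB21 does so in both comparisons of Bio. Except for LOB21 in Bio vs. N, these signs follow from groups that did not overlap.

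The members were also compared with each other over the 9 arrays, as a description that shares treatments, slides and scaling. rtcs and rtcl had the highest correlation of levels of any pair of members (Pearson r = 0.90, and 0.76 for deviations from the treatment means). rtcs correlated with LOB21 at 0.70 (0.67 within treatments) and with rum1 at 0.70 (0.47 within treatments). For rtcl and LOB21 the values were 0.57 and 0.61, for LOB21 and rum1 0.66 and 0.45, and for rtcl and rum1 0.43 and 0.02.

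Among the other transcripts (13961 or 13960 for each member) well above background on all 9 arrays with a single symbol in the gene table, those with levels most like rtcs were GRMZM2G034283 (r = 0.97), which the study annotates in the glutaredoxin family, GRMZM2G043348 (r = 0.96), and GRMZM2G013448 (r = 0.96), annotated as ACC oxidase, which makes the last step of ethylene synthesis. The mean level of the last was 0.12 in N, -1.21 in Aa and -1.58 in Bio. The transcripts most like rtcl were GRMZM2G424112, GRMZM2G332390 and GRMZM5G847216 (each r = 0.98), the second with mean levels of 0.27, -1.22 and -1.26. Nearest to LOB21 were GRMZM2G145578 (r = 0.98), GRMZM2G170457 (r = 0.95) and GRMZM5G806449 (r = 0.95). Nearest to rum1 were GRMZM2G071959, named histone2b1 (r = 0.96, mean levels 1.58, 1.32 and 1.01), GRMZM2G330757 (r = 0.95) and GRMZM2G045155 (r = 0.95).

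The list of the LBD family, to which 3 of the members belong, held 11 transcripts. Of these, 10 were found by name in the gene table and rtcl was added by its identifier. The table matched 18726 of the 39372 array transcripts, so that this list and those below are partial. Counts of LBD transcripts refer to this list here and below. At an unadjusted p below 0.05, the number lower was 3 of 11 for Aa against N, 3 for Bio against N and 1 for Bio against Aa, with 0 higher each time, while 4.28%, 3.51% and 1.79% of all transcripts were lower by this rule. These counts include the members, which were chosen with results known. Among the other 8 only LOB19 in Aa vs. N was counted (-0.61, limma adjusted p = 0.620), and it is named after its value was seen. The median over all 11 was -0.02, 0.07 and 0.05 in the 3 comparisons, close to the medians of -0.01, 0.02 and 0.05 over all transcripts, and 2 of the 11 were well above background on no array compared. IG1, which restricts cell proliferation in the embryo sac, differed by -0.02, 0.07 and 0.09.

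Another pair of LBD transcripts, outside that list, is named by the study, which chose them on these arrays, so that their direction is not independent evidence. AC234149.1_FGT002 was well above background on all N arrays, at intensities of 13.6, 73.9 and 166 units, and on no Aa or Bio array, where it lay between 2.74 and 10.2 units. As levels, N 1 (-5.96) overlapped Bio 3 (-5.92) and lay above all Aa arrays. Against the lowest signal that is well above background on those arrays, it was at least 5.27-fold lower in Aa (limma adjusted p = 0.481) and at least 3.44-fold lower in Bio (limma adjusted p = 0.647) than in N. GRMZM2G073044_T01 was bright, with levels of 3.68, 5.24 and 3.65 in N, of 2.66, 3.48 and 3.04 in Aa and of 2.90, 3.56 and 3.20 in Bio. All N arrays were above the others, but 2 N spots, 2 Aa spots and all 3 Bio spots were marked by the scanner software. N 2 was again the highest array. With every spot kept the difference from N was -1.13 for Aa and -0.97 for Bio (exact permutation p = 0.1 for each), and no fitted value is given because the unmarked spots left 1 array in N and in Aa and none in Bio.

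The list of Aux/IAA repressors, the family of rum1, held 19 transcripts of the array. At an unadjusted p below 0.05, the number higher was 2, 3 and 2 over the 3 comparisons, and the number lower was 3, 0 and 0. Among all transcripts, 3.07%, 3.53% and 3.12% were higher by this rule, and 4.28%, 3.51% and 1.79% were lower. AUX22 lay 0.60 log2 units lower in Aa than in N (-0.60, SE 0.19, limma adjusted p = 0.515), with no overlap. AUX36 had levels from -1.58 to -0.49 in N, from -1.59 to -0.67 in Aa and from -0.13 to 1.06 in Bio. It differed by 1.34 in Bio vs. N (limma adjusted p = 0.678) and by 1.56 in Bio vs. Aa (limma adjusted p = 0.790), with no overlap in either. AUX34, named rul1 as the close relative of rum1, was well above background on no array, hence no fold is given.

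The list of auxin response factors, which these repressors bind, held 20 transcripts of the array. At an unadjusted p below 0.05, the number higher was 0, 1 and 2 over the 3 comparisons, and the number lower was 3, 1 and 0. The shares of all transcripts were 3.07%, 3.53% and 3.12% higher, and 4.28%, 3.51% and 1.79% lower. ARF23 had a mean level of -0.07 ± 0.12 in N and -1.05 ± 0.40 in Aa (SD, n = 3 each), a difference of -0.98 (limma adjusted p = 0.419) with no overlap. ARF31 differed by 0.51 in Bio vs. N (limma adjusted p = 0.683) and ARF28 by 0.78 in Bio vs. Aa (limma adjusted p = 0.790). ARF25 and ARF34, the response factors known to bind RUM1 in maize, were not analysed here because the gene table used does not give these names.

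The list of auxin transport genes held 10 transcripts of the array. At an unadjusted p below 0.05, the number lower was 5, 4 and 0 over the 3 comparisons, and 0 were higher in any. Among all transcripts, 4.28%, 3.51% and 1.79% were lower by this rule. The median was -0.89, -0.45 and 0.09, and the values against N stayed below 0 relative to all transcripts under normexp background correction as well (-0.24 and -0.13). PIN proteins carry auxin out of cells. PIN10a lay at -1.11 ± 0.36 in N and -1.96 ± 0.19 in Aa (SD, n = 3 each), a difference of -0.84 (limma adjusted p = 0.440), and PIN9 differed by -1.50 in Bio vs. N (limma adjusted p = 0.683, with overlap of the groups). The others counted in Aa vs. N, named after their values were seen, were PIN8 (-1.62), the PIN5a transcript GRMZM2G025742 (-1.31), bif2, which encodes the kinase that acts on PIN proteins (-1.10), and PIN1d (-0.96). In Bio vs. N the others were PIN8 (-2.24), bif2 (-0.95) and PIN1d (-0.94). PIN8 was well above background on 2 of 3 Bio arrays only. The other PIN5a transcript, GRMZM2G175983, was well above background on no array. The study lists bif2 and GRMZM2G025742 among the transcripts it selected as lower in Aa vs. N on these arrays, so that their direction there is not independent evidence.

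Auxin synthesis genes of the YUCCA type, of which 8 were listed, had 0 transcripts at an unadjusted limma p below 0.05 in each comparison. However, 4 of the 8 were well above background on no array compared. Of 13 transcripts of WUSCHEL-type homeobox genes and the SCARECROW gene ZmSCR, a list that also holds genes known from shoots and embryos, the number lower was 2, 2 and 1 over the 3 comparisons, with 0 higher. The homeobox gene wox3A differed by -0.90 in Aa vs. N (limma adjusted p = 0.439) and by -0.64 in Bio vs. N (limma adjusted p = 0.683), each with no overlap. Of 16 expansins found by name, the cell wall proteins that loosen walls during growth, the number lower was 3, 1 and 0, with 0 higher. The study's selection on these arrays holds further expansins that this list leaves out, some of them higher and some lower. Beside the counts of both lists, 4.28%, 3.51% and 1.79% of all transcripts were lower by this rule. The expansin expB6 had mean levels of 5.89 ± 0.35 in N, 4.13 ± 0.29 in Aa and 4.76 ± 0.61 in Bio (SD, n = 3 each). It differed by -1.75 in Aa vs. N (limma adjusted p = 0.374) and by -1.12 in Bio vs. N (limma adjusted p = 0.655), with no overlap in either.

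**Figure D4:**
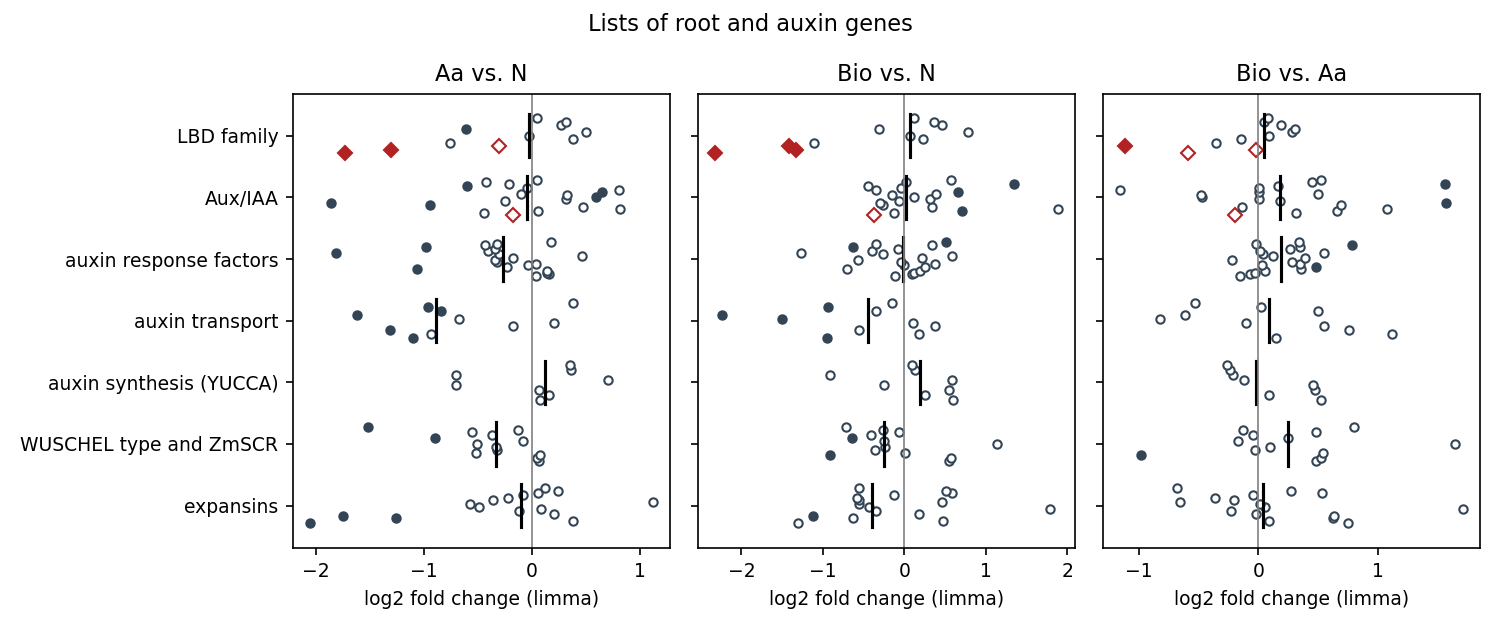
Log2 fold change (x axis) of the transcripts of each gene list (y axis) in the 3 comparisons (panels). Points are transcripts, red diamonds the members, filled points have an unadjusted limma p below 0.05 and the black line is the median of the list. Within the LBD list, which leaves out the LBD pair named by the study, rtcs has the lowest value in both comparisons with N. Auxin transport has its median at -0.89 in Aa vs. N.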

How the data were processed

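The deposited files hold the Cy3 intensity of each spot from Agilent Feature Extraction 10.5.1.1, per the file headers background-subtracted by the authors' scanner software, and the authors also deposited a table of the same intensity values multiplied by 1 factor per array. No untreated control was used here, and the number of arrays limits the precision. From these, log2 intensity minus the log2 75th percentile of all 39372 probes was computed for each array. Spots with an outlier mark of the scanner software (5.68%) were missing in the fit and kept in the levels. limma 3.58.1 in R 4.3.3 (lmFit and eBayes, all 9 arrays, 3 treatments) was run over all transcripts with Benjamini-Hochberg adjustment. The code was also run on simulated data, and the outcome is not given here. p-values measure the spread between pools of roots. Arrays of the same replicate number shared a slide, and their deviations from the treatment means correlated in all pairs (r from 0.17 to 0.48 over 20517 transcripts). Pairs with different numbers ran from -0.56 to 0.29, so the ranges overlapped. A shared slide and a shared replicate run cannot be told apart. The main fit and the exact permutation test did not pair the arrays. 0 columns belonged to no sample.

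The members and lists were chosen with earlier results of these data known. Lists were taken by symbol or synonym from a RefSeq gene table of the NAM-5.0 assembly, to which 18726 array transcripts matched. rtcl was identified by the rule and not by the table, and no coordinates are given because the builds differ. Besides the members and the LBD pair of the study, the text names per list and comparison the transcript with the smallest unadjusted p below 0.05 that was well above background on all arrays compared, and per member the 3 transcripts with the highest correlation. Alternatives were quantile normalization, the percentile over detected probes, the values scaled by the authors, normexp, a filter on dim probes, marked spots kept, an intensity trend, only the treatments compared, a replicate or slide block, the methods' t-test (parametric, without the permutation and Bonferroni steps of the methods), a threshold of 0.05 and leaving out each array.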

Additional observations from a re-analysis of the deposited data

How the results depend on the processing

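Over 22 alternative settings, 0 transcripts were called in any comparison, and of 252 member values 245 kept their direction and 7 reversed. Over the 3 comparisons, limma gave an unadjusted p below 0.05 for 2828, 2717 and 1896 transcripts, against 2885, 1909 and 1482 with the methods' t-test, run here with equal variances and parametric p values, which also called 0 after Benjamini-Hochberg adjustment. The permutation p values and Bonferroni correction of the methods were not run. The replicate block (the same fit as the slide block) changed no call, and gave rtcs -2.32 in Bio vs. N with a limma adjusted p of 0.405, while the unadjusted counts became 3875, 3749 and 2922.

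Normexp with offset 50 moved the median of all transcripts to -0.49, -0.35 and 0.16 over the 3 comparisons, so its values are given relative to these. It gave LOB21 1.35 for Aa and 0.086 for Bio against N and rum1 0.54 and 0.12, all reversed once the median was subtracted. Before that subtraction, the Bio values of both genes were below 0, as in the main fit. Normexp with offset 50 also gave 0 LBD transcripts at an unadjusted p below 0.05 in each comparison, whereas rtcs was at -0.69 and -0.74. Normexp fitted on the negative control spots, chosen after seeing the data, gave 6 LBD transcripts in Bio vs. N (with 6563 transcripts in all), rtcs at -0.81 and -0.92, and kept LOB21 (-0.48 and -1.66) and rum1 (-0.18 and -0.52) below 0. The cause of these shifts was not tested. The methods' t-test gave 1 LBD transcript for Bio against N and 0 for Bio against Aa.

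When each array was left out, rtcs ranged from -2.00 to -1.21 for Aa and from -2.64 to -1.80 for Bio against N, and LOB21 from -1.47 to -0.76 in Bio vs. Aa. rtcl in Bio vs. Aa ranged from -0.45 to 0.27, reversed without Aa 1, Bio 1 or Bio 3. The LBD count ranged from 2 to 4, from 3 to 5 and from 0 to 1. Signal over background limits rtcs, whose spot was not well above background on Bio 1.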
